A study of Mus musculus with 41 samples.

Results

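The insulin-like growth factor (IGF) system is described here by 10 mouse genes, chosen by name for their place in that system, with earlier results of these data known. They are the ligands Igf1 and Igf2, the receptors Igf1r and Igf2r, and the binding proteins Igfbp2, Igfbp3, Igfbp4, Igfbp5, Igfbp6 and Igfbp7. All 10 were measured, among 22438 genes with ribosome footprint counts and 55385 genes with RNA estimates. The study compared mice and cells that lack Hbs1l or Pelo, a pair of proteins that rescue ribosomes stalled on an mRNA, or Upf2, a factor of nonsense-mediated mRNA decay. Ribosome profiling sequences the mRNA fragments that ribosomes protect (footprints), and RNA sequencing of polyA-selected RNA from the same kind of cells gives the mRNA behind them.

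Footprints came from whole embryos at E8.5, with 3 Hbs1l-/- and 3 Wildtype libraries of strain C57BL/6NJ, each pooled from 5 embryos. They also came from the cerebellum at P14, with 3 Atoh-Cre;Hbs1l cKO and 3 Atoh-Cre;Hbs1l +/+ libraries of strain C57BL/6J, each from 1 mouse. The Atoh1 promoter drives this Cre in granule cell precursors. Other cells of the mutant cerebella keep 1 floxed allele beside 1 null allele, while the controls are +/+. The third source was mouse embryonic fibroblasts (MEFs) of strain C57BL/6, in which the tamoxifen-dependent CAG-Cre ER deletes a floxed gene. CAG-Cre ER; Hbs1l cKO, CAG-Cre ER; Pelo cKO and CAG-Cre ER; Upf2 cKO cells, called Hbs1l-/-, Pelo-/- and Upf2-/- here, gave 3 footprint libraries each, each with 3 CAG-Cre ER control libraries of its own batch. The RNA of the MEFs, in 1 batch, came from 3 Hbs1l-/-, 2 Pelo-/-, 3 Upf2-/- and 3 control libraries. Controls and mutants both received tamoxifen, and each MEF replicate was the culture of a single embryo. By the study's methods the Hbs1l mutants of cerebellum and MEFs carry 1 floxed and 1 null allele, the Pelo and Upf2 mutants 2 floxed alleles, and MEFs of every genotype and the conditional cerebella also carry the C57BL/6J form of the arginine tRNA gene n-Tr20. The zygosity of n-Tr20 in the embryos was not given in the sources used here.

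IGF1 and IGF2 are secreted growth factors that bind the IGF1 receptor, a tyrosine kinase that signals growth and survival through the PI3K-AKT pathway. IGF2R, which is also the cation-independent mannose 6-phosphate receptor, carries IGF2 to lysosomes for breakdown. The IGFBPs bind the ligands outside the cell, and can store them, extend their life or keep them from the receptor. Igf2 is a major growth factor of the embryo, expressed from the paternal allele, while Igf2r is expressed from the maternal allele in most mouse tissues. IGFBP7 binds IGFs weakly and is known for binding insulin, the IGF1 receptor and extracellular matrix.

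Library totals ranged from 2634480 to 7298812 footprints in embryos, from 10919139 to 22591768 in cerebella, from 5782990 to 25607974 in MEFs, and from 22713643 to 86425762 estimated counts in RNA. Levels are in CPM, a gene's count relative to the scaled total of its library, and are given for replicates 1, 2 and 3 in that order. Hbs1l fell in each comparison of Hbs1l mutants (log2 fold change -3.60 in embryos, -1.50 in cerebella, -4.15 in MEF footprints and -2.78 in MEF RNA), and Pelo fell in Pelo-/- MEFs (-3.78 in footprints and -6.15 in RNA). Upf2 went the other way, at 113 to 119 CPM in the footprint libraries labelled Upf2-/- against 49.2 to 58.3 in controls, and at 30.0 to 63.0 against 15.9 to 21.5 in RNA. A gene total also counts exons outside a floxed interval, so it does not show whether those exons were deleted, and these libraries are called by their label. The study reported that targets of nonsense-mediated decay and transcripts with retained introns accumulated in Upf2-/- cells specifically, which was not examined here. The control MEF footprint libraries of the 3 batches were not independent. Same-numbered controls differed by a chi-square of 1.10 to 1.19 per gene in 9 pairs, and differently numbered ones by 4.07 to 11.7 in 18 pairs. The 3 MEF footprint comparisons therefore share controls, as the 3 RNA comparisons do by design, and their values are set side by side without a measure of likeness.

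In control MEFs the system was dominated by Igf2. Footprint levels per length are given here in footprint TPM, the count divided by the length of the coding sequence and then scaled to the same total over all genes in every library. On this scale Igf2 stood at 3367 ± 320 (SD, n = 3, controls of the Hbs1l batch), above 99.9% of genes. Igfbp7 followed at 949 ± 197, Igfbp2 at 444 ± 63.1, Igf2r at 267 ± 6.40 and Igfbp5 at 137 ± 15.4, each apart from its neighbours in every library. Igfbp4 at 93.0 ± 5.09 and Igf1r at 89.3 ± 3.73 overlapped, and then came Igfbp6 at 74.3 ± 6.73, Igfbp3 at 62.4 ± 6.56 and Igf1 at 33.5 ± 9.36. Igfbp6 and Igfbp3 overlapped in the controls of both other batches. In RNA, in TPM, a unit that corrects for transcript length, the first 3 genes came in the same order, with Igf2 at 567 ± 115, Igfbp7 at 253 ± 34.4 and Igfbp2 at 133 ± 31.0, and from Igfbp4 down each gene overlapped the next. Igfbp5 and Igf2r carried many footprints for their RNA, with ratios above those of 98.6% and 98.1% of 11510 genes in control MEFs. The ratio of Igfbp4 stood at the 45.5th percentile. Its RNA level counts all transcripts, of which 50.8% to 58.9% in controls were processed forms without the full coding sequence. A ratio to coding transcripts alone was not computed.

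The order of the genes differed between tissues. In Wildtype embryos Igf2 led at 1450 ± 23.3 footprint TPM (SD, n = 3), followed by Igfbp2 at 418 ± 23.3 and Igfbp4 at 404 ± 2.33, which overlapped. Igfbp5 at 234 ± 28.1 and Igf2r at 173 ± 27.5 came next, and Igfbp6 at 5.05 ± 1.62 and Igfbp7 at 2.46 ± 1.51 were last and overlapped. In control cerebella Igf2 was again first, at 397 ± 46.0, Igfbp2 at 239.8 ± 57.9 and Igfbp5 at 233 ± 15.0 overlapped behind it, and Igf1 at 28.2 ± 4.66, Igf2r at 25.5 ± 10.3 and Igf1r at 17.4 ± 3.71 stood at the low end, where Igf2r overlapped both others and these lay apart from each other. Igfbp7 thus held the second rank in MEFs and the last in embryos. Tissue, strain and batch change together here and cannot be told apart. The scaling also differs between tissues, as the level of Igf2 in footprint TPM was 1.31 times its TMM-scaled CPM per kilobase in control MEFs, 1.052 times in Wildtype embryos and 1.109 times in control cerebella, so that only the order within a tissue is read from these levels.

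In MEFs most of the system changed in footprints. Of the 10 members 5 rose and 2 fell in Hbs1l-/- cells (edgeR's quasi-likelihood test, Benjamini-Hochberg adjusted p at most 0.05 over all genes), while 34.1% of all 11984 genes tested passed, 17.4% upward and 16.7% downward. Pelo-/- cells had 5 that rose and 2 that fell, where 44.1% of genes passed, 22.9% upward and 21.2% downward. In the libraries labelled Upf2-/- 6 rose and 2 fell, where 43.4% of genes passed, 22.3% upward and 21.1% downward. The median log2 fold change of the 10 members was 0.16, 0.40 and 0.53 in these comparisons, with that of all genes within 0.01 of zero. Mutant and control libraries did not overlap for 6 members in Hbs1l-/- cells, where 46.4% of all genes did not overlap, for 7 in Pelo-/- cells (55.4% of genes) and for 8 in the libraries labelled Upf2-/- (54.1% of genes). A footprint level in a culture mixes the number of cells of a type with the mRNA and translation in each, and these cannot be told apart.

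**Figure D1:**
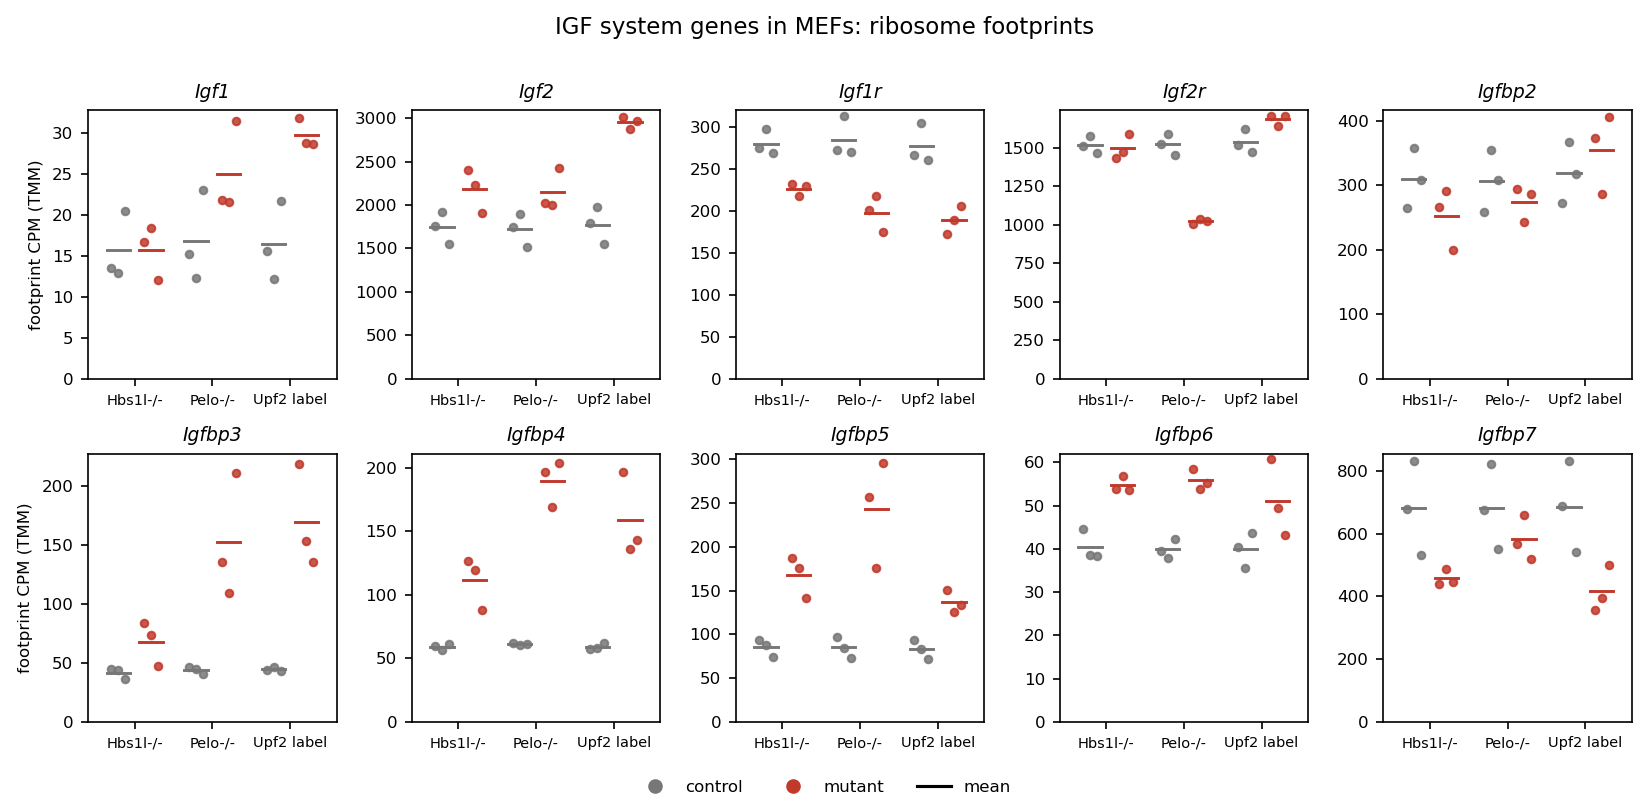
Footprint CPM of the 10 genes in each MEF library (points) with the group mean (line), for Hbs1l-/-, Pelo-/- and Upf2-labelled MEFs beside the controls of their batch. Igfbp3, Igfbp4 and Igfbp5 lie above all 3 controls in all 3 comparisons and Igf1r lies below them, and Igf2r is low in Pelo-/- cells alone.

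The ligands rose in some mutants. The Igf1 gene lies at chr10:87858265-87937042 (plus strand) and Igf2 at chr7:142650766-142666816 (minus strand) in GRCm38. Igf2 footprints were 3017, 2871 and 2972 CPM in the libraries labelled Upf2-/- against 1796, 1978 and 1551 in their controls. All 3 libraries lay above all controls, a rise of 1.66-fold (log2 fold change 0.73 ± 0.08 SE, adjusted p = 4.46e-05). Igf2 in Hbs1l-/- cells stood at 2407, 2236 and 1904 CPM against 1759, 1921 and 1549, with 1 mutant library inside the control range, and rose 1.25-fold (log2 fold change 0.32 ± 0.09 SE, adjusted p = 0.0129). Pelo-/- cells had 2028, 1996 and 2423 CPM against 1751, 1896 and 1517, without overlap, and Igf2 rose 1.25-fold (log2 fold change 0.32 ± 0.10 SE, adjusted p = 0.0266). The last 2 calls rest on single libraries. That in Hbs1l-/- cells was lost without Hbs1l-/- replicate 1 (adjusted p = 0.0766), and that in Pelo-/- cells without Pelo-/- replicate 3 (0.064), control replicate 1 (0.0766) or control replicate 3 (0.0983). The Igf2 change under the Upf2-/- label differed from that in Hbs1l-/- cells by 0.41 ± 0.14 SE (adjusted p = 0.0934), which passed without Upf2-batch control replicate 2 (0.0439) or Hbs1l-batch control replicate 3 (0.0476), and in a direct comparison of the mutants without controls (0.00285). The change in Pelo-/- cells differed from that under the Upf2-/- label by -0.41 ± 0.14 SE (adjusted p = 0.068), which passed without Pelo-/- replicate 3 (0.0212), Pelo-batch control replicate 3 (0.0326) or Upf2-batch control replicate 2 (0.034), in DESeq2 (0.0403) and in the direct comparison (0.00339).

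Igf1 had the lowest footprint level per length of the members in control MEFs. Its footprints stood at 31.8, 28.8 and 28.7 CPM in the libraries labelled Upf2-/- against 15.6, 12.1 and 21.7 in controls, all above, a rise of 1.8-fold (log2 fold change 0.85 ± 0.17 SE, adjusted p = 0.00214). Those of Pelo-/- cells stood at 21.9, 21.6 and 31.6 CPM against 15.2, 12.3 and 23.0, with overlap, and missed the threshold (log2 fold change 0.58 ± 0.22 SE, adjusted p = 0.053), which they passed without Pelo-/- replicate 2 (0.0388) or control replicate 3 (0.00848), in DESeq2 (0.016) and with no filter on low counts (0.0284). The values in Hbs1l-/- cells were 16.7, 18.4 and 12.1 against 13.6, 13.0 and 20.6, with a log2 fold change of -0.01 ± 0.19 SE. The Igf1 change under the Upf2-/- label differed from that in Hbs1l-/- cells by 0.86 ± 0.29 SE (adjusted p = 0.107), which passed without Upf2-batch control replicate 3 (0.0284) and in a direct comparison of the mutants without controls (difference 0.93, adjusted p = 0.00108). Directly compared, Igf1 also differed between Pelo-/- and Hbs1l-/- cells (0.71, adjusted p = 0.0274). Igf1 RNA was lower in Pelo-/- cells and under the Upf2-/- label. It was 6.8, 6.42 and 4.85 CPM against 10.3, 10.6 and 13.1 under the Upf2-/- label, below all controls (log2 fold change -0.92 ± 0.17 SE, adjusted p = 0.00426), and 6.37 and 3.12 against 9.93, 10.7 and 12.9 in Pelo-/- cells, again below (log2 fold change -1.23 ± 0.28 SE, adjusted p = 0.0163). The call under the Upf2-/- label held without any single library (highest adjusted p 0.0249) but was lost with length-scaled counts (0.0506) and in limma on log2(TPM + 1) (0.139), while that in Pelo-/- cells was lost without Pelo-/- replicate 2 (0.0505) or control replicate 3 (0.0509).

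The receptors did not move alike. Igf1r lies at chr7:67952827-68233668 (plus strand) and Igf2r at chr17:12682406-12769664 (minus strand). Igf1r footprints fell in all 3, from 274, 297 and 268 CPM in controls to 232, 217 and 229.8 in Hbs1l-/- cells, 1.24-fold lower (log2 fold change -0.31 ± 0.07 SE, adjusted p = 0.00258). Pelo-/- cells had 201, 217 and 174 CPM against 272, 313 and 269.5, 1.44-fold lower (log2 fold change -0.53 ± 0.09 SE, adjusted p = 0.00122). Libraries labelled Upf2-/- had 173, 189 and 205 against 266, 305 and 260.5, 1.47-fold lower (log2 fold change -0.55 ± 0.08 SE, adjusted p = 0.000267). In each case every mutant library lay below every control, and each call held without any single library. Igf2r, the receptor that clears IGF2, fell only in the test of Pelo-/- cells, at 1006, 1035 and 1026 CPM against 1521, 1585 and 1455 in controls, 1.49-fold lower (log2 fold change -0.57 ± 0.06 SE, adjusted p = 7.27e-05). It was 1433, 1472 and 1589 CPM against 1512, 1572 and 1462 in Hbs1l-/- cells (log2 fold change -0.02 ± 0.06 SE), and under the Upf2-/- label 1707, 1640 and 1703 against 1518, 1622 and 1473 (log2 fold change 0.13 ± 0.06 SE, adjusted p = 0.0987), where it passed without control replicate 2 (0.0404). The difference between mutants was tested as an interaction over the 12 footprint libraries of each pair. Since same-numbered controls were nearly identical, the 6 controls of a pair stand for 3 distinct ones, which the model counts as 6, and this limit holds for every difference between mutants given here. Mutants were also compared directly, without controls, across batches. The Igf2r change of Pelo-/- cells differed by -0.55 ± 0.08 SE (log2) from that of Hbs1l-/- cells (adjusted p = 0.0011, 5.55% of 12526 genes called) and -0.70 ± 0.08 SE from that under the Upf2-/- label (adjusted p = 7.49e-05, 13% of 12675 genes called). The direct comparison also called both Igf2r differences (adjusted p = 0.000232 and 4.17e-05).

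In the RNA of Pelo-/- cells both receptors were higher. Igf2r RNA was 406 and 434 CPM in the 2 Pelo-/- libraries against 137, 238 and 196 in controls, 2.21-fold higher (log2 fold change 1.14 ± 0.20 SE, adjusted p = 0.00666), and the call held without any single library. Igf1r RNA was 175 and 194 CPM against 94.6, 134 and 112, 1.62-fold higher (log2 fold change 0.70 ± 0.14 SE, adjusted p = 0.0111), a call lost without Pelo-/- replicate 2 (0.0743). Neither group overlapped its controls. The main transcripts of Igf1r and Igf2r are long, at 11409 and 8887 bases. Whether the RNA changes of the 2 Pelo-/- libraries depended on transcript length was not tested. Neither receptor passed in the RNA of Hbs1l-/- cells or under the Upf2-/- label, with log2 fold changes between -0.37 and -0.13. Without Hbs1l-/- RNA replicate 1, Igf1r passed as lower in Hbs1l-/- cells (0.0419).

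Most of the binding proteins changed in MEF footprints. Igfbp3, Igfbp4 and Igfbp5 rose in all 3 mutants and Igfbp6 rose less in each, while Igfbp7 fell in 2 of them. The proximal promoters shown here are those of Igfbp3, Igfbp4 and Igfbp5, which rose more than Igfbp6 in each mutant, and of Igfbp7. The sequences are the 250 bases before the start of transcription from RefSeq (GRCm38.p6), 5′ to 3′ on the gene's own strand, with capitals marking a TATA box (TATAAA) or a GC box (GGGCGG) on either strand. Igfbp3 is at chr11:7213924-7214173 on the minus strand, Igfbp4 at chr11:99040994-99041243 on the plus strand, Igfbp5 at chr1:72874866-72875115 on the minus strand and Igfbp7 at chr5:77408046-77408295 on the minus strand.
Igfbp3: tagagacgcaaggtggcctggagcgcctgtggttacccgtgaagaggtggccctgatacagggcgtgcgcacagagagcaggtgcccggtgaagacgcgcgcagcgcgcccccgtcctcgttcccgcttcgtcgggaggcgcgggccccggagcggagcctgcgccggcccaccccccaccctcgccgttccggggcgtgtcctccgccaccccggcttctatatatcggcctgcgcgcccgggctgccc
Igfbp4: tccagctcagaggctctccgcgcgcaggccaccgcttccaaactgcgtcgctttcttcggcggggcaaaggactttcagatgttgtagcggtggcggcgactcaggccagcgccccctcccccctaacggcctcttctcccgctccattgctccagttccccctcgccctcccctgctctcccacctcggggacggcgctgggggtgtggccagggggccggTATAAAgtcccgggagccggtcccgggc
Igfbp5: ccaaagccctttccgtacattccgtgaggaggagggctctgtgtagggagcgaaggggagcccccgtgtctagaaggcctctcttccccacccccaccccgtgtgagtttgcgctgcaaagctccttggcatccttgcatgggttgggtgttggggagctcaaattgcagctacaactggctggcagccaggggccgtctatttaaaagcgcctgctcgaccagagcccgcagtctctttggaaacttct
Igfbp7: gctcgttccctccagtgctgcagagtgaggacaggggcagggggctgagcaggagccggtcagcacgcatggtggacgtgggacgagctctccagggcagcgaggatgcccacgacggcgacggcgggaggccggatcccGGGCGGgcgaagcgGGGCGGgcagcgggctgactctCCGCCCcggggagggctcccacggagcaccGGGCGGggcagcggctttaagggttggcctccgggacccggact
The Igfbp4 window held 1 TATA box, which began 28 bases before the start, and the Igfbp7 window held 4 GC boxes. Those of Igfbp3 and Igfbp5 held neither of the 2 letter strings, nor CCAAT or CACGTG. The window of Igfbp6, which is not printed, held 1 TATAAA and 2 CCAAT. Of 32851 promoter windows of this length 12.4% held TATAAA, 32.7% GGGCGG, 33.8% CCAAT and 6.02% CACGTG on either strand, so that a match is a description of the window alone. The Igfbp3 gene spans chr11:7206086-7213923 (minus strand), Igfbp4 chr11:99041244-99054392 (plus), Igfbp5 chr1:72857932-72874884 (minus) and Igfbp7 chr5:77349240-77408041 (minus) in the Gencode M21 annotation of GRCm38.

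Igfbp3, which carries most IGF in adult serum, rose in all 3 mutants. Its footprints were 218, 153 and 135 CPM under the Upf2-/- label against 44.3, 46.1 and 43.3 in controls, 3.77-fold higher (log2 fold change 1.92 ± 0.14 SE, adjusted p = 4.13e-06). They were 136, 109 and 211 CPM in Pelo-/- cells against 46.8, 44.4 and 40.2, 3.47-fold higher (log2 fold change 1.80 ± 0.20 SE, adjusted p = 8.57e-05), and 83.3, 73.2 and 47.2 in Hbs1l-/- cells against 45.0, 43.8 and 36.4, 1.63-fold higher (log2 fold change 0.70 ± 0.16 SE, adjusted p = 0.00419). No mutant library overlapped its controls, and the calls held without any single library. The rise under the Upf2-/- label exceeded that in Hbs1l-/- cells by 1.21 ± 0.26 SE on the log2 scale (adjusted p = 0.0119, 4.93% of 12334 genes called). The excess in Pelo-/- over Hbs1l-/- cells was 1.10 ± 0.31 SE and missed the threshold (adjusted p = 0.0521), which it passed without Pelo-/- replicate 2 (0.0125) or Hbs1l-/- replicate 1 (0.0404), with no filter on low counts (0.0189) and with the mutants compared directly (0.0094).

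Igfbp4, which holds IGFs until the protease PAPP-A cuts it, rose in all 3 mutants, with calls that held without any single library. Its footprints were 197, 169 and 204 CPM in Pelo-/- cells against 61.7, 60.2 and 61.3 in controls, 3.11-fold higher (log2 fold change 1.64 ± 0.08 SE, adjusted p = 4.16e-07). Libraries labelled Upf2-/- had 197, 136 and 143 against 57.3, 58.4 and 61.8, 2.67-fold higher (log2 fold change 1.42 ± 0.12 SE, adjusted p = 8.96e-06). Hbs1l-/- cells had 127, 119.7 and 87.7 against 59.9, 56.2 and 60.9, 1.89-fold higher (log2 fold change 0.92 ± 0.11 SE, adjusted p = 4.92e-05). The rise in Pelo-/- exceeded that in Hbs1l-/- cells by 0.72 ± 0.16 SE on the log2 scale (adjusted p = 0.0144). Between Pelo-/- and the Upf2-/- label the difference was 0.22 ± 0.16 SE (adjusted p = 0.41), and it passed without Upf2-/- replicate 1 (0.0351).

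Igfbp5, which binds the extracellular matrix as well as IGFs, rose 2.86-fold in Pelo-/- cells, at 257, 176 and 295 CPM against 97.1, 84.8 and 73.2 in controls (log2 fold change 1.51 ± 0.17 SE, adjusted p = 8.33e-05). It rose 1.98-fold in Hbs1l-/- cells, at 187, 176 and 141 CPM against 93.3, 87.8 and 74.0 (log2 fold change 0.98 ± 0.11 SE, adjusted p = 1.57e-05), and 1.65-fold under the Upf2-/- label, at 151, 125 and 133 against 94.2, 82.8 and 71.4 (log2 fold change 0.72 ± 0.10 SE, adjusted p = 0.000209). Every mutant library lay above every control, and the calls held without any single library. The difference of 0.80 ± 0.23 SE between Pelo-/- and the Upf2-/- label passed (adjusted p = 0.0331) but was lost in 8 of 12 fits without 1 library, at adjusted p of 0.054 to 0.0935. The 8 were those without Pelo-/- replicates 1 or 3, Pelo-batch control replicates 2 or 3, Upf2-/- replicates 2 or 3 and Upf2-batch control replicates 1 or 2. Without Pelo-/- replicate 2, the difference between Pelo-/- and Hbs1l-/- cells (0.54, adjusted p = 0.218) also passed (0.027).

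Igfbp6 (chr15:102144362-102149511, plus strand), which prefers IGF2 over IGF1, rose 1.35-fold in Hbs1l-/- cells, at 53.8, 56.8 and 53.7 CPM against 44.5, 38.6 and 38.3 (log2 fold change 0.43 ± 0.09 SE, adjusted p = 0.00175), and 1.4-fold in Pelo-/- cells, at 58.5, 53.9 and 55.2 against 39.6, 38.0 and 42.3 (log2 fold change 0.48 ± 0.08 SE, adjusted p = 0.000619). It was 60.8, 49.4 and 43.1 CPM against 40.4, 35.7 and 43.8 under the Upf2-/- label, with overlap, and its call (log2 fold change 0.35 ± 0.12 SE, adjusted p = 0.0326) was lost without Upf2-/- replicate 1 (0.141) or 2 (0.0689), or control replicate 1 (0.077) or 2 (0.0966). Igfbp7 moved the other way. It was 356, 394 and 501 CPM under the Upf2-/- label against 688, 832 and 540.3 in controls, 1.65-fold lower (log2 fold change -0.72 ± 0.15 SE, adjusted p = 0.00226), and 439, 488 and 446 in Hbs1l-/- cells against 679.5, 831 and 532, 1.49-fold lower (log2 fold change -0.58 ± 0.12 SE, adjusted p = 0.00192). Pelo-/- cells had 566, 661 and 521 against 675, 821 and 550.2, with overlap (log2 fold change -0.23 ± 0.14 SE, adjusted p = 0.198), and Igfbp7 passed there without control replicate 3 (0.0427). Igfbp2 (chr1:72824503-72852474, plus strand) missed the threshold in each mutant, with log2 fold changes of -0.30 ± 0.12, -0.16 ± 0.11 and 0.15 ± 0.13 SE in Hbs1l-/-, Pelo-/- and Upf2-labelled cells. It passed as lower in Hbs1l-/- cells without Hbs1l-/- replicate 2 (0.0349) or control replicate 1 (0.037), and over all libraries with no filter on low counts (0.0102).

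Marker lists of fibroblasts and of other cell types also moved in the MEF footprint libraries. Of 19 lists, some of which share genes, 4 summed to levels above all controls and 7 below them in Hbs1l-/- cells, 5 and 8 in Pelo-/- cells, and 3 and 9 under the Upf2-/- label. The fibroblast list of 8 genes summed to 32370 to 35990 CPM in Hbs1l-/- cells against 27620 to 29180 in controls, to 34120 to 38180 against 27770 to 29060 in Pelo-/- cells, and to 33260 to 35990 against 27970 to 29510 under the Upf2-/- label, with 7, 7 and 6 genes higher and 1 lower under the Upf2-/- label. The smooth muscle list of 4 genes summed to 12170 to 13610 CPM in Hbs1l-/- cells against 20010 to 22920 in controls, to 10690 to 15280 against 19970 to 22830 in Pelo-/- cells, and to 11250 to 15110 against 20260 to 23230 under the Upf2-/- label, with 4, 4 and 3 genes lower and 1 higher under the Upf2-/- label. The macrophage list of 6 genes summed to 184 to 243 CPM against 106 to 140, 378 to 549 against 105 to 143, and 136 to 172 against 103 to 138 in the same order, with 5, 6 and 3 genes higher. The endothelial list of 7 genes summed to 38.6 to 43.5 CPM against 69.4 to 83.4, 25.5 to 33.3 against 73.8 to 84.4, and 53.8 to 61.0 against 69.6 to 86.6, with 2, 2 and 1 of its tested genes lower and none, 1 and 1 higher. The decidua list of 4 genes was lower, at 182 to 189 CPM against 331 to 401, 143 to 184 against 316 to 399.7, and 185 to 208 against 333 to 413, with 1 gene lower in each and 1 higher in Pelo-/- cells. The meninges list of 6 genes was higher, at 13360 to 15570 CPM against 11990 to 13330, 14240 to 16800 against 12040 to 13340, and 15200 to 16630 against 12160 to 13550, with 3 genes higher in each. Its genes Slc6a13, Ranbp3l and Slc22a6 were under 1 CPM in all libraries. Those higher were Lum, Dcn and Col1a1, which are also in the fibroblast list, so this is no separate signal. The list of astrocytes and Bergmann glia, of 4 genes, was higher at 19.7 to 27.8 CPM against 10.4 to 13.0, 25.7 to 47.1 against 11.4 to 13.6, and 32.8 to 52.8 against 12.6 to 12.8, with 1, 4 and 2 genes higher. The mesoderm and somite list was lower at 50.4 to 56.2 CPM against 57.5 to 77.6, 25.8 to 53.3 against 57.5 to 82.7, and 38.9 to 55.6 against 62.1 to 84.5. Its genes Tbx6, Tcf15 and Mesp1 were under 1 CPM in all libraries. The granule progenitor and granule neuron lists were likewise below all controls in each mutant. Gabra6, Neurod1, Cbln1 and Cbln3 were under 1 CPM in all libraries, which left Zic1 alone in the granule neuron list. Atoh1 and Gli1 were under 1 CPM too, and of the 2 tested granule progenitor genes 1 was higher and 1 lower in each mutant. The skeletal muscle list was below them in Hbs1l-/- cells (4.20 to 6.87 CPM against 12.2 to 20.7, 3 genes lower) and under the Upf2-/- label (8.30 to 12.4 against 14.4 to 20.9), the cardiomyocyte list in Pelo-/- cells (14.2 to 31.97 against 36.6 to 67.4, 3 genes lower), the neural epithelium list in Pelo-/- and Upf2-labelled cells, and the oligodendrocyte list under the Upf2-/- label. Pax6 and Sox1 of the neural epithelium list were under 1 CPM in all libraries of Pelo-/- and Upf2-labelled cells and their controls. Of its 2 tested genes 1 was higher and 1 lower in Pelo-/- cells, and 1 was lower under the Upf2-/- label. The 6 erythroid and 7 trophoblast markers were each under 1 CPM on average in all groups of these comparisons. In RNA 3 lists lay above all controls and 9 below in Hbs1l-/- cells, 6 and 3 in Pelo-/- cells, and none and 6 under the Upf2-/- label. The smooth muscle list in RNA summed to 10530 to 12640 CPM in Hbs1l-/- cells against 16050 to 19640, to 15500 to 15810 against 16330 to 19270 in Pelo-/- cells, and to 11920 to 14650 against 16310 to 19950 under the Upf2-/- label, with 4, 0 and 2 genes lower. The fibroblast list in RNA summed to 11940 to 16060 CPM against 9970 to 11770 in Hbs1l-/- cells (6 genes higher) and to 13700 to 14000 against 9784 to 11730 in Pelo-/- cells (1 higher), but to 8486 to 9388 against 10130 to 11910 under the Upf2-/- label (none higher and 1 lower), the other way from its footprints. The endothelial list in RNA was 15.7 to 18.7 CPM against 28.5 to 36.4, 33.6 to 40.7 against 28.4 to 37.0, and 20.4 to 27.9 against 28.8 to 37.0. The macrophage list in RNA was 141 to 189 CPM against 78.7 to 108, 107 to 152 against 77.2 to 108, and 71.3 to 129 against 80.0 to 109.7, with 4, 1 and none of its genes higher. The part of these cell types in the IGF system values was not tested.

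In MEF RNA edgeR called 5, 4 and 1 members in Hbs1l-/-, Pelo-/- and Upf2-labelled cells, against 7, 7 and 8 in footprints. The difference in counts was not tested, and the counts in RNA were unstable. DESeq2 called 7 members and 4939 genes in Pelo-/- RNA. There 2 members and 3320 genes passed without control replicate 3, and 6 and 4624 without control replicate 2. In Hbs1l-/- RNA 3 to 5 members and 1817 to 2663 genes passed without 1 library. Hbs1l-/- cells had 4 that rose and 1 that fell, while 23.1% of 15318 genes passed, 12.7% upward and 10.4% downward, and 6 members did not overlap their controls (44.3% of genes). The 2 Pelo-/- libraries had 3 that rose and 1 that fell (32.1% of 14705 genes passed, 15.5% upward and 16.6% downward), and 7 did not overlap (62.2% of genes). Under the Upf2-/- label none rose and 1, Igf1, fell (20% of 15983 genes passed, 13.2% upward and 6.76% downward), and Igf1 was also the single member without overlap (39.9% of genes).

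**Figure D2:**
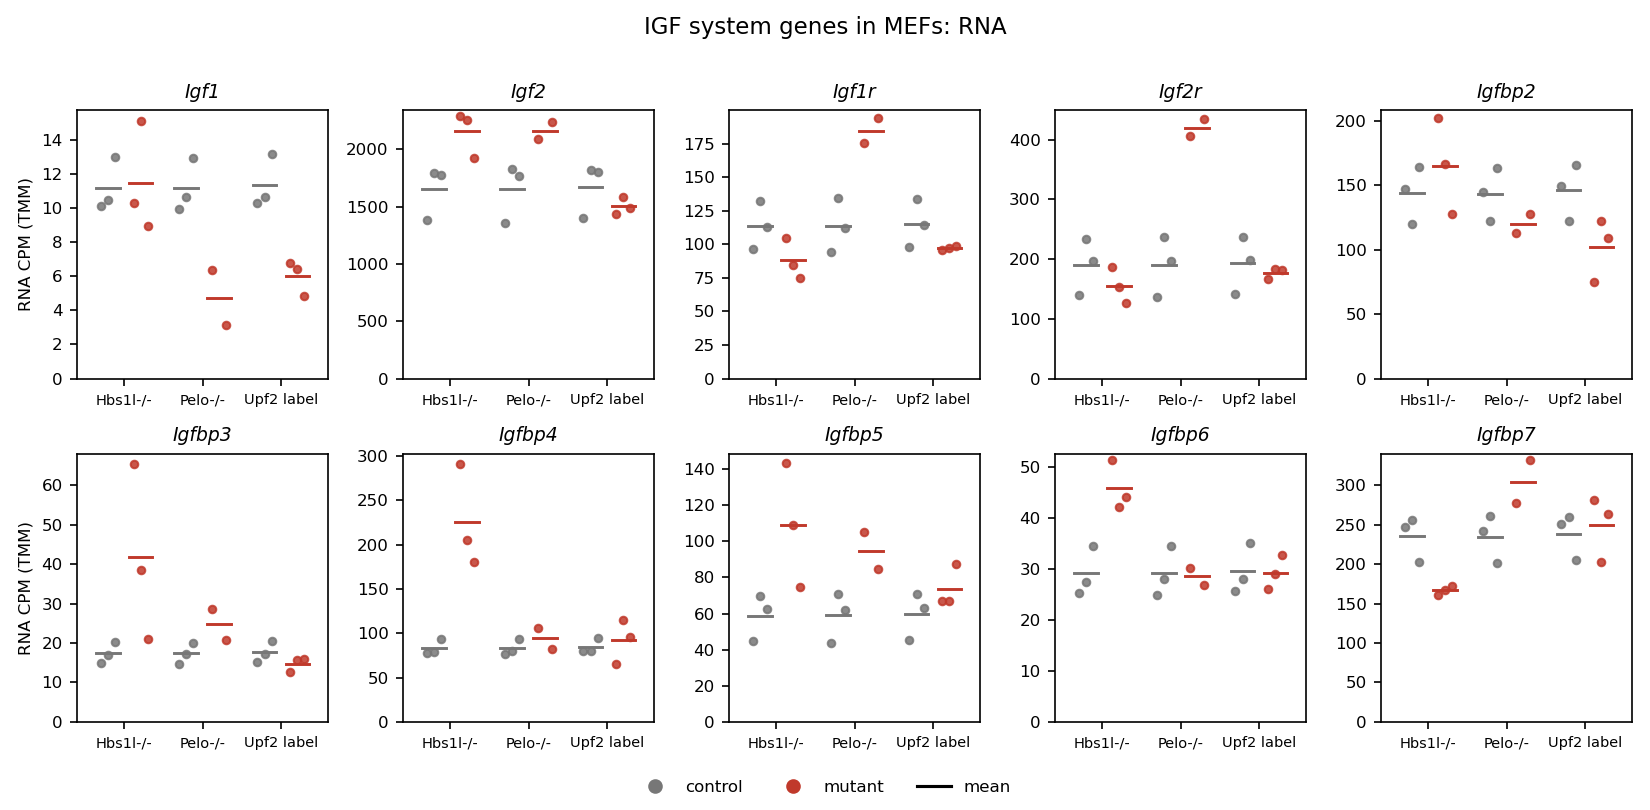
RNA CPM of the 10 genes in each MEF library (points) with the group mean (line), by mutant beside the 3 controls that all comparisons share. Igfbp4 lies above all controls in Hbs1l-/- cells, Igf2r and Igf1r in Pelo-/- cells, and Igf1 lies below them in Pelo-/- and Upf2-labelled cells.

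In Hbs1l-/- cells 5 of the 6 binding proteins passed in RNA, each in the direction of its footprints, where 23.1% of all genes passed. Igfbp4 RNA was 291, 205 and 181 CPM against 78.2, 78.6 and 94.0 in controls, 2.69-fold higher (log2 fold change 1.43 ± 0.17 SE, adjusted p = 0.00146), a call that held without any single library. Igfbp7 RNA was 160.5, 167 and 172 CPM against 247, 256 and 202, 1.41-fold lower (log2 fold change -0.49 ± 0.11 SE, adjusted p = 0.0125), a call that held likewise (highest adjusted p 0.0488). Igfbp6 RNA was 51.2, 42.1 and 44.0 CPM against 25.3, 27.4 and 34.5, 1.56-fold higher (log2 fold change 0.65 ± 0.14 SE, adjusted p = 0.0111), and was lost without control replicate 2 (0.0513). Igfbp3 and Igfbp5 RNA depended more on single libraries, and limma on log2(TPM + 1) called neither (adjusted p = 0.0705 and 0.069). Igfbp3 was 65.4, 38.6 and 21.1 CPM against 15.0, 17.0 and 20.2 (log2 fold change 1.25 ± 0.33 SE, adjusted p = 0.0272), with the lowest mutant library next to the highest control, and its call was lost without Hbs1l-/- replicate 1 (log2 fold change 0.77, adjusted p = 0.0641) or 2 (0.0692), or control replicate 1 (0.0689) or 2 (0.0924). Igfbp5 was 144, 109 and 74.5 CPM against 44.6, 69.8 and 62.2 (log2 fold change 0.89 ± 0.23 SE, adjusted p = 0.0248), and was lost without Hbs1l-/- replicate 1 (0.0744) or 2 (0.077), or control replicate 1 (0.0621) or 3 (0.0528).

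In Pelo-/- cells 1 of the 6 binding proteins passed in RNA, where 32.1% of all genes did. Under the Upf2-/- label none did in edgeR, where 20% of all genes did. At these shares the counts are no result about the 6 genes. Of all 10 members 2 had an unadjusted p under 0.05 under that label, where 34.8% of all genes did, and DESeq2 called 2, Igf1 and Igfbp2, among 3715 genes. In Pelo-/- cells Igfbp5 was the one that passed, at 105 and 84.6 CPM against 43.8, 71.0 and 62.0 (log2 fold change 0.68 ± 0.19 SE, adjusted p = 0.0335), and was lost without Pelo-/- replicate 1 (0.21) or 2 (0.0609) or control replicate 3 (0.0716), and in limma on log2(TPM + 1) (0.0611). Igfbp3 RNA was 28.7 and 20.8 CPM against 14.8, 17.3 and 20.1 (log2 fold change 0.50 ± 0.18 SE, adjusted p = 0.0691), which passed in DESeq2 (0.0294) and with no filter on low counts (0.0072), and Igfbp4 RNA 106 and 82.3 against 76.7, 80.0 and 93.7 (0.17 ± 0.13 SE, adjusted p = 0.35). Igfbp2 and Igfbp7 passed without control replicate 2 (0.0453 as lower and 0.0475 as higher). Igfbp7 also passed as higher over all libraries in DESeq2 (0.0276), with no filter (0.0353) and in limma (0.0466). Under the Upf2-/- label Igfbp3 RNA was 12.7, 15.7 and 16.0 CPM against 15.3, 17.3 and 20.5 (-0.26 ± 0.15 SE, adjusted p = 0.256), and Igfbp4 RNA 65.2, 115 and 96.3 against 79.5, 79.9 and 95.2 (0.12 ± 0.18 SE, adjusted p = 0.68). In both genes the mutant libraries overlapped the controls. Igfbp2 passed as lower under that label in DESeq2 (0.0199), with no filter (0.00532) and without Upf2-/- replicate 2 (0.0492). Igf2 RNA passed in none of the 3 comparisons, with log2 fold changes of 0.39, 0.39 and -0.16 (adjusted p = 0.0596, 0.0723 and 0.429). DESeq2 called it as higher in Hbs1l-/- (0.0217) and Pelo-/- cells (0.0199), and length-scaled counts in Hbs1l-/- cells (0.0308).

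Footprints relative to RNA, called translational efficiency (TE), were compared between genotypes in 1 model over both assays. No member passed in Hbs1l-/- cells, where 0.0336% of 11907 genes did (4 genes). There 1 member had an unadjusted p under 0.05, where 17.3% of all genes did, and DESeq2 called none of the members and 334 genes. Pelo-/- TE rose for 5 members and fell for 3 (44.6% of 12143 genes passed, 24.3% upward and 20.4% downward). Under the Upf2-/- label it rose for 4 and fell for 1 (20.3% of 12054 genes passed, 8.47% upward and 11.8% downward). Across all genes the footprint and RNA changes had a Pearson r of 0.784 in Hbs1l-/- cells, 0.102 in Pelo-/- cells and 0.422 under the Upf2-/- label (11904, 12140 and 12057 genes, which are not independent replicates). They had the same sign for 8, 5 and 3 of the 10 members, beside 70.5%, 53.9% and 63.8% of all genes. Footprints and RNA came from different batches and dishes, and assay and batch cannot be told apart. The TE model treats all libraries as independent, and a pairing of same-numbered libraries across the assays was not checked.

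**Figure D3:**
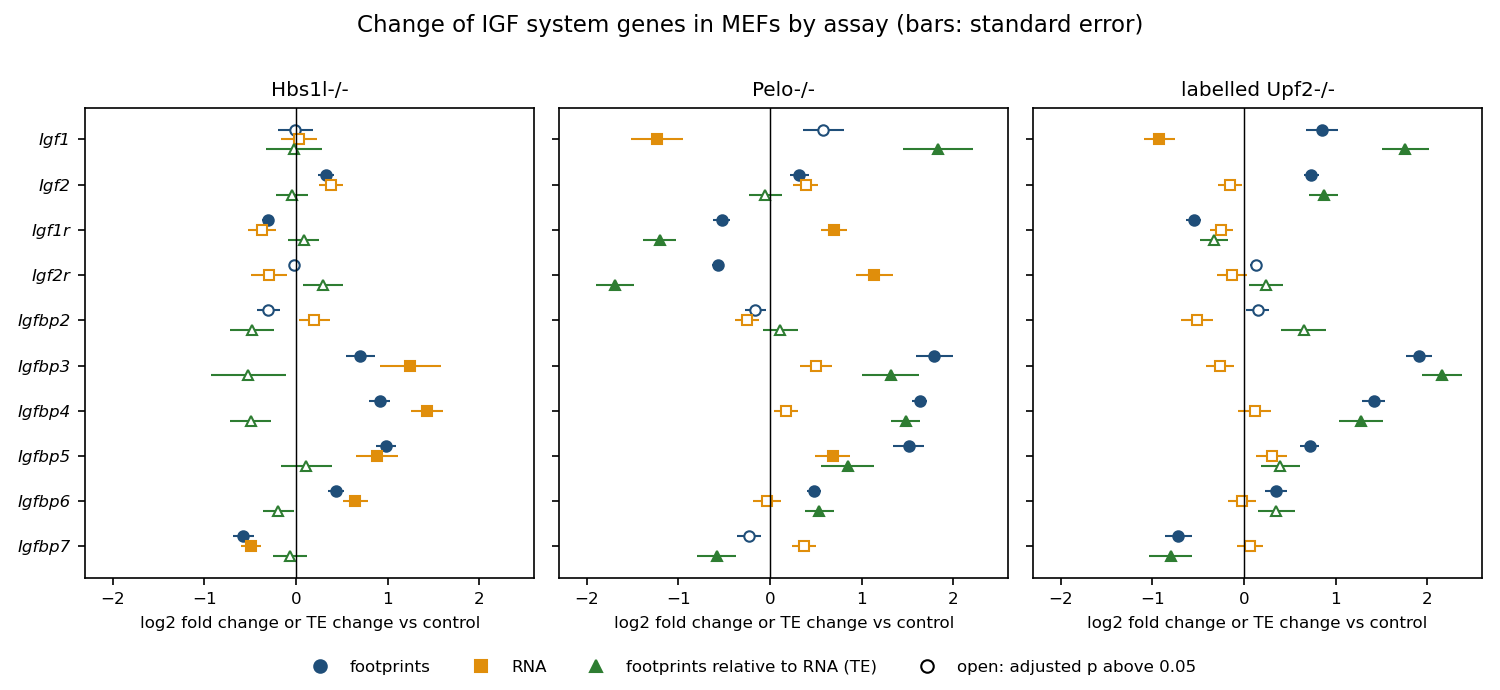
Log2 change against control of footprints (circles), RNA (squares) and TE (triangles) for the 10 genes in MEFs, with standard errors as bars and open symbols where the adjusted p is above 0.05. TE of Igfbp3 and Igfbp4 lies above 0 in Pelo-/- and Upf2-labelled cells, and in Hbs1l-/- cells footprints and RNA have the same sign for 8 of 10 genes.

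Among the ligands, Igf1 TE rose by 1.84 ± 0.39 SE (log2, adjusted p = 0.00184) in Pelo-/- cells and by 1.76 ± 0.26 SE (adjusted p = 0.000564) under the Upf2-/- label. Igf2 TE rose under the Upf2-/- label by 0.87 ± 0.16 SE (adjusted p = 0.00224), and was -0.05 ± 0.18 SE in Pelo-/- cells. These calls held without any single library. Among the receptors, Igf2r TE was 3.24-fold lower in Pelo-/- cells (-1.70 ± 0.21 SE, adjusted p = 4.03e-05) and Igf1r TE 2.31-fold lower (-1.21 ± 0.18 SE, adjusted p = 0.000145). In both genes RNA was higher while footprints were lower. The part of transcript length in these TE values was not tested. Under the Upf2-/- label neither passed, and each passed without 1 control RNA library (Igf1r without replicate 2, 0.0497, and Igf2r without replicate 1, 0.0429).

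Among the binding proteins, Igfbp3 and Igfbp4 TE rose in both, with calls that held without any single library. Igfbp3 TE rose 4.47-fold under the Upf2-/- label (2.16 ± 0.22 SE, adjusted p = 4.23e-05) and 2.5-fold in Pelo-/- cells (1.32 ± 0.31 SE, adjusted p = 0.00382). Igfbp4 TE rose 2.43-fold (1.28 ± 0.24 SE, adjusted p = 0.00244) and 2.79-fold (1.48 ± 0.16 SE, adjusted p = 1.64e-05). Smaller changes rested on single libraries. Igfbp6 TE rose in Pelo-/- cells (0.54, adjusted p = 0.0156), a call lost without Pelo-/- RNA replicate 2 (0.0842). Igfbp5 TE rose there too (0.85, adjusted p = 0.0283) but was lost in 7 of 11 fits, at 0.0538 to 0.12 (without Pelo-/- footprint replicates 1 or 3, Pelo-/- RNA replicate 2, control footprint replicates 2 or 3, or control RNA replicates 2 or 3). Igfbp7 TE fell in Pelo-/- cells (-0.58, adjusted p = 0.041) and was lost in 6 of 11 fits, at 0.0678 to 0.167 (without Pelo-/- footprint replicates 1 or 3, Pelo-/- RNA replicate 2, control footprint replicates 1 or 2, or control RNA replicate 3). It also fell under the Upf2-/- label (-0.80, adjusted p = 0.0246) and was lost in 4 of 12, at 0.062 to 0.0743 (without Upf2-/- footprint replicates 1 or 2, control footprint replicate 2 or control RNA replicate 3). Igfbp2 TE under the Upf2-/- label (0.65, adjusted p = 0.0666) passed without Upf2-/- footprint replicate 2 (0.0441), Upf2-/- RNA replicate 2 (0.0293) or control RNA replicate 2 (0.0497), and in DESeq2 (0.0408).

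The make-up of the binding proteins in footprints differed between mutants and controls. Per kilobase of coding sequence, Igfbp7 gave 48.7% to 56.9% of the summed footprint level of the 6 binding protein genes in control MEFs of the Hbs1l batch and 35.6% to 43.1% in Hbs1l-/- cells. It gave 30.9% to 44.3% in Pelo-/- cells against 49.2% to 56.7% in their controls, and 24.6% to 34.9% under the Upf2-/- label against 48.1% to 56.7%. The shares did not overlap in any of the 3. A share also falls when the other genes rise. In Pelo-/- cells Igfbp7 itself missed the threshold (log2 fold change -0.23, with overlap), while Igfbp3, Igfbp4 and Igfbp5 rose. Igfbp3 took 4.89% to 7.25%, 7.83% to 13.4% and 10.1% to 16.1% in the mutants against at most 4.13% in any control library. Igfbp4 took 9.58% to 11.6%, 12.8% to 13.8% and 11.3% to 15.3% in the mutants against at most 6.30% in any control library. Igfbp5 took 15.8% to 17.6%, 13.6% to 20.3% and 10.7% to 12.02% against at most 9.16%. In RNA TPM, Igfbp7 gave 28.2% to 40.3% in Hbs1l-/- cells against 44.75% to 58.81% in controls. Its RNA share was 58.34% to 63.77% in Pelo-/- cells and 50.06% to 68.06% under the Upf2-/- label. Both overlapped the controls, so the lower share of Igfbp7 footprints was not seen in RNA there. The summed level of the 6 genes was 1526 to 1906 footprint TPM in Hbs1l-/- cells against 1541 to 2012, 2047 to 2388 against 1579 to 2001 in Pelo-/- cells, and 1782 to 2213 against 1576 to 1999 under the Upf2-/- label, so it lay above all controls in Pelo-/- cells and overlapped them in the other two. The summed level of the ligands was 3918 to 4967 against 3071 to 3688, 3840 to 4826 against 3015 to 3650, and 5894 to 6457 against 3060 to 3761. On this scale it lay above all controls in each of the 3, and most of it was Igf2. In TMM-scaled CPM per kilobase, a scale added after seeing the data, the ligand sum of Hbs1l-/- cells overlapped its controls (2828 to 3577 against 2318 to 2854), and the sums of Pelo-/- cells (2979 to 3625 against 2275 to 2816) and of Upf2-labelled cells (4281 to 4502 against 2323 to 2937) stayed above theirs.

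**Figure D4:**
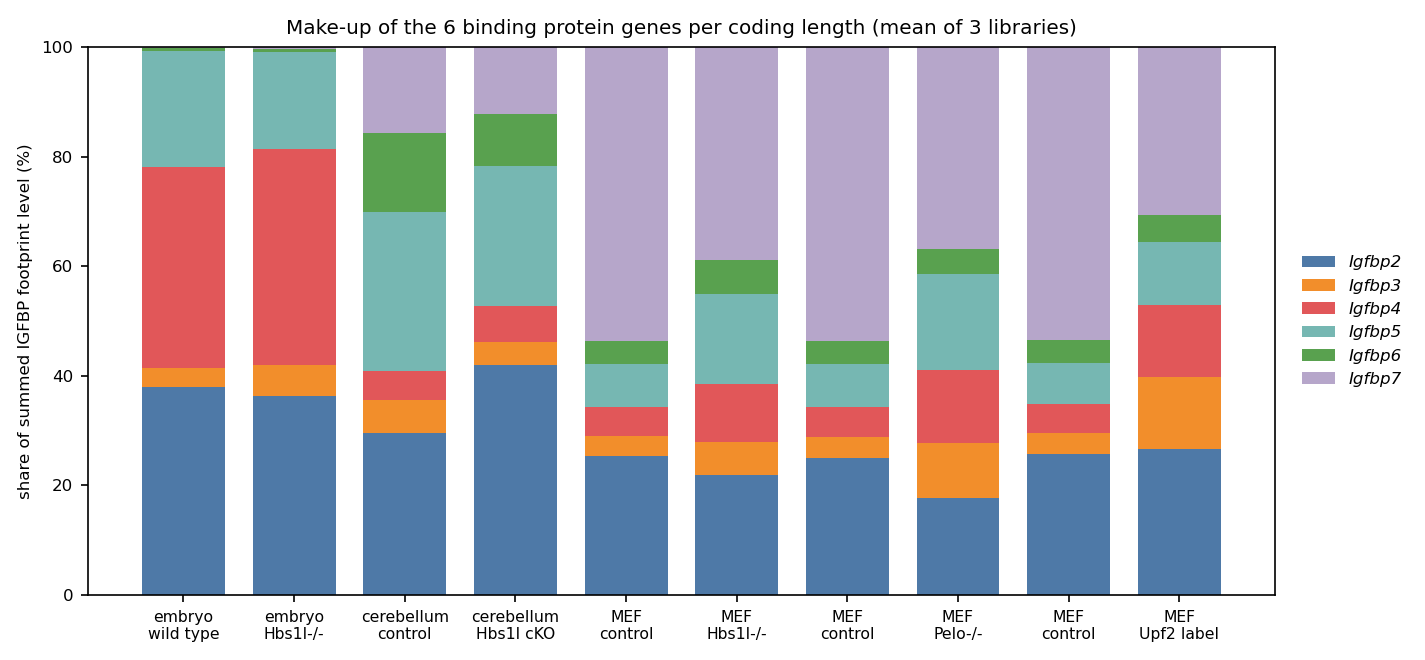
Mean share (%, 3 libraries per bar) of each of 6 binding protein genes in their summed footprint level per kilobase of coding sequence, by tissue and genotype, with the MEF controls of each comparison left of their mutant. Igfbp7 has the largest share in control MEFs and a smaller one in each mutant, and it is at the top edge of the embryo bars, too thin to see in wild type.

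In Hbs1l-/- embryos at E8.5 no member passed, of 9 tested, where 1.87% of 11416 genes did. Igfbp7, with at most 3.54 CPM, did not pass the filter on low counts. There were 2 members with an unadjusted p under 0.05, near the 18.6% of all genes at that threshold, and 1 of them, Igfbp5, was called as lower by DESeq2 (adjusted p = 0.032) and with no filter on low counts (0.0134). Igfbp5 was 151, 94.4 and 87.8 CPM against 173, 198 and 170.4 in Wildtype embryos (log2 fold change -0.69 ± 0.19 SE, adjusted p = 0.0849), and Igfbp4 was 299, 228 and 218 against 326, 305 and 327 (log2 fold change -0.36 ± 0.15 SE, adjusted p = 0.216). These were the 2 members whose mutant libraries all lay below the controls, where 23.8% of genes did not overlap. Igf2 was 1121, 699.9 and 692 CPM against 938, 904 and 962, and Igfbp2 388, 197 and 199 against 394, 345 and 352. In all 4 genes Hbs1l-/- replicate 1 stood above the other two mutants. Without it all 4 passed as lower, with log2 fold changes of -0.99 for Igfbp5 (adjusted p = 4.21e-04), -0.88 for Igfbp2 (5.42e-04), -0.52 for Igfbp4 (0.0104) and -0.42 for Igf2 (0.0261), and 2309 genes passed in place of 214. Igf2r was 1157, 1274 and 1109 CPM against 1062, 1370 and 1235 and Igf1r 98.8, 93.9 and 84.9 against 94.4, 125 and 89.2, with overlap.

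The embryo libraries also differed in markers of other tissues, with 2 of 19 lists above all Wildtype libraries and 8 below. The erythroid list of 6 genes summed to 3186 to 8698 CPM in Hbs1l-/- libraries against 13070 to 17050 in Wildtype, with 2 genes lower, and the cardiomyocyte list of 5 genes to 618 to 886 against 1472 to 1747, with all 5 lower. The trophoblast list of 7 genes summed to 133 to 636 CPM against 32.7 to 55.3, with 3 of 4 tested genes higher and Prl3b1 under 1 CPM in all libraries. Lower in every Hbs1l-/- library, like Igfbp4 and Igfbp5, were also the fibroblast list (1028 to 1416 CPM against 1421 to 1486, 2 genes lower), the smooth muscle list (503 to 603 against 719.9 to 761), the meninges list (209.7 to 250.2 against 342 to 372, 1 gene lower) and the neural epithelium list (94.3 to 186 against 220.3 to 257, 1 gene lower). So were the skeletal muscle list (7.05 to 24.3 against 36.7 to 45.7, 1 gene lower) and the oligodendrocyte list (16.1 to 20.3 against 23.7 to 31.2). The meninges list shares Lum, Dcn and Col1a1 with the fibroblast list. Myod1, Myog and Ckm of the skeletal muscle list and Mog of the oligodendrocyte list were under 1 CPM in all libraries. The endothelial list lay above all Wildtype libraries (549.7 to 717 against 493 to 518, 1 gene higher). The visceral endoderm list overlapped (14030 to 28740 against 17120 to 20150), as did the decidua list (95.4 to 348 against 73.5 to 162). The part of these tissues in the values of the IGF system was not tested.

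In the cerebellum at P14 no member passed, of 10 tested, where 0.0624% of 14430 genes did (9 genes). There 5 members had an unadjusted p under 0.05, as did 13.4% of all genes, and DESeq2 called none of them. Igf2 was 339, 305 and 371 CPM in Atoh-Cre;Hbs1l cKO cerebella against 243, 207 and 278 in controls (log2 fold change 0.48 ± 0.15 SE, adjusted p = 0.225). Igfbp2 was 250.3, 273 and 355 CPM against 243, 159.6 and 188 (log2 fold change 0.57 ± 0.19 SE, adjusted p = 0.262), and Igfbp4 34.4, 40.4 and 52.1 against 34.1, 29.5 and 31.7 (log2 fold change 0.42, adjusted p = 0.318). All mutant values lay above the controls in these 3 genes, and below them in Igfbp3, at 28.5, 30.1 and 26.3 CPM against 40.0, 35.7 and 39.2 (log2 fold change -0.44 ± 0.11 SE, adjusted p = 0.161), where 18.3% of all genes did not overlap. Igfbp6 was 46.5, 66.5 and 41.1 CPM against 81.4, 77.9 and 64.5 (log2 fold change -0.54, adjusted p = 0.267), and Igf1, which Purkinje cells are known to express, 16.5, 15.7 and 16.3 against 17.6, 15.2 and 13.8, both with overlap. The choroid plexus list of 5 genes varied within both groups (3332 to 5369 CPM in mutants and 1005 to 4446 in controls), as did the meninges list of 6 genes (644 to 1767 and 538 to 2503). Of 19 lists 3 lay above all controls and 2 below, although none of their genes passed the test. The Purkinje list of 4 genes summed to 4392 to 5904 CPM in mutants, below the 6091 to 11840 of controls, and the oligodendrocyte list of 4 genes to 6938 to 9035 against 9389 to 10610. Granule progenitor markers summed to 139 to 243 CPM in mutants against 77.1 to 87.2 in controls, neural epithelium markers to 219 to 229 against 176 to 187, and macrophage markers to 165 to 182 against 135 to 159. The part of these cell types in the values of the IGF system was not tested.

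**Figure D5:**
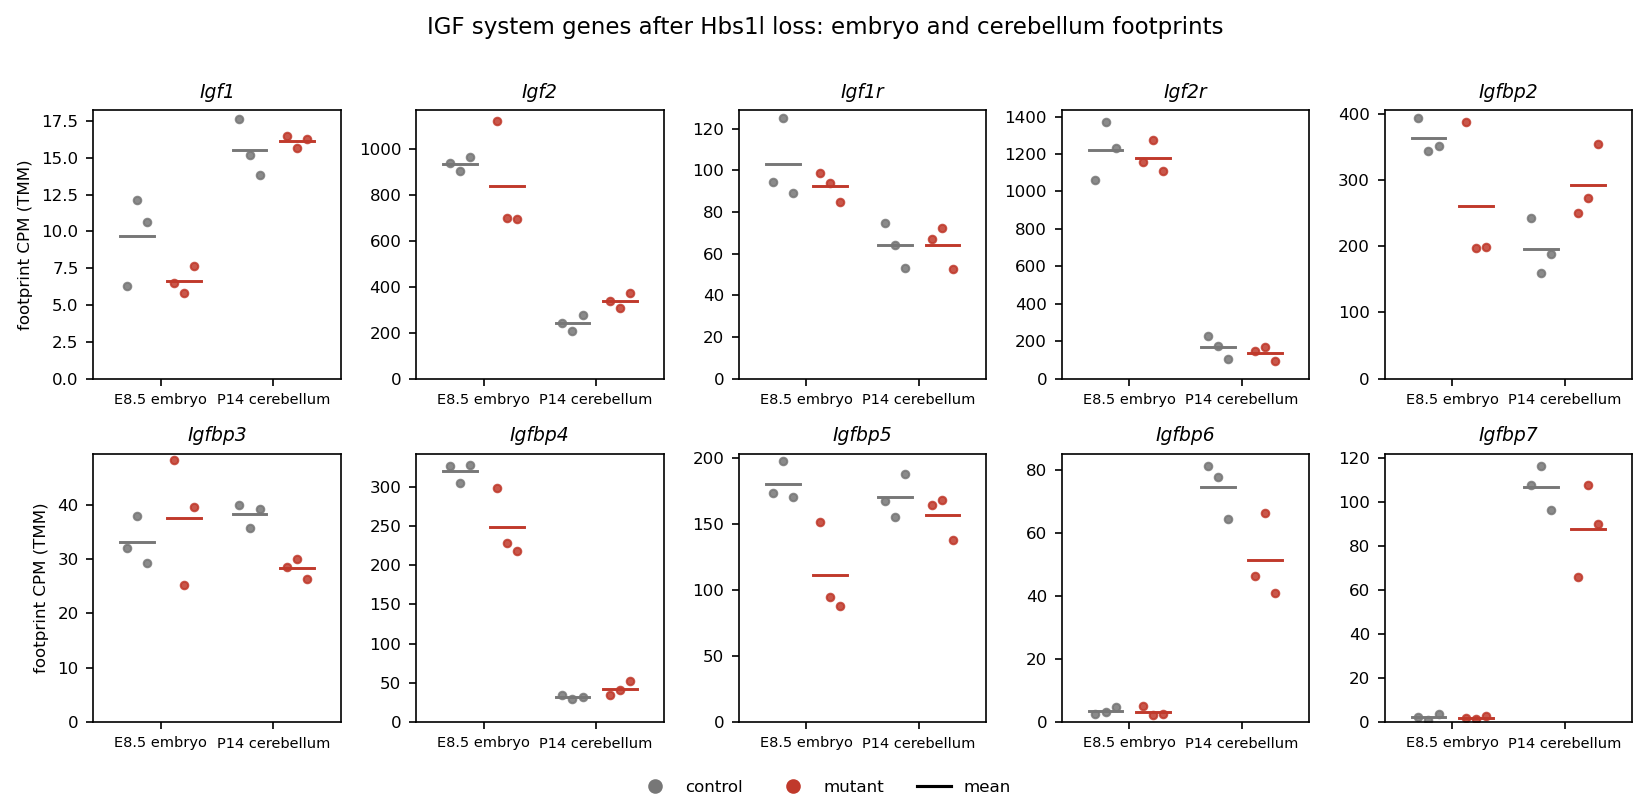
Footprint CPM of the 10 genes in each embryo and cerebellum library (points) with the group mean (line), Hbs1l mutants beside their controls. Igfbp5 and Igfbp4 lie below the controls in embryos, and Igf2, Igfbp2 and Igfbp4 lie above them in the cerebellum, none past the adjusted threshold.

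Some genes that regulate IGF supply also changed in MEF footprints. Of 9 tested genes of ligand supply and clearance, Stc1 and Stc2, which encode stanniocalcins that inhibit PAPP-A, rose in all 3 mutants. Stc2 rose by 0.87, 1.63 and 1.06 on the log2 scale in Hbs1l-/-, Pelo-/- and Upf2-labelled cells (adjusted p = 0.0117, 3.41e-05 and 0.00186), and Stc1 by 0.91, 1.58 and 0.97 (0.00629, 6.52e-04 and 0.00214). Pappa, which encodes PAPP-A itself, changed by -0.91, -0.93 and -0.39 (2.41e-05, 1.36e-04 and 0.0345), and Ctsd, the lysosomal protease cathepsin D, by -0.67, -0.64 and -0.63 (3.46e-06, 1.82e-04 and 1.19e-05). In all, 2 rose and 2 fell in Hbs1l-/- cells, 2 rose and 3 fell in Pelo-/- cells, and 3 rose and 3 fell under the Upf2-/- label, where Pappa2 rose by 1.4 (adjusted p = 0.00138). These 4, 5 and 6 of 9 genes stand beside 34.1%, 44.1% and 43.4% of all genes called, so that the counts are no result about the list. The list median was 0.01, -0.22 and 0.09. The call of Stc2 in Hbs1l-/- footprints was lost without Hbs1l-/- replicate 1 (adjusted p = 0.0658), and that of Pappa under the Upf2-/- label without Upf2-labelled replicate 1 or 2 or control replicate 2 (up to 0.15). In the RNA of Hbs1l-/- cells Stc1 and Stc2 rose too (0.97 and 1.35, adjusted p = 0.0127 and 0.00338) and Pappa fell (-1.24, adjusted p = 0.00147), whereas Pappa RNA rose in Pelo-/- cells (0.64, adjusted p = 0.0137) and none of the 9 passed under the Upf2-/- label. The RNA call of Stc1 was lost without Hbs1l-/- replicate 2 (adjusted p = 0.0556) and that of Pappa in Pelo-/- cells without Pelo-/- replicate 1 (0.104). In all, 4, 4 and none of the 9 passed in RNA, where 23.1%, 32.1% and 20% of all genes did. In TE none of the 9 passed in Hbs1l-/- cells, 1 rose and 4 fell in Pelo-/- cells, and 2 rose and 1 fell under the Upf2-/- label, where 0.0336%, 44.6% and 20.3% of all genes passed.

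Of 20 tested genes that relay the receptor signal, 1 rose and 6 fell in the footprints of Hbs1l-/- cells, 2 rose and 8 fell in Pelo-/- cells, and none rose and 9 fell under the Upf2-/- label. These 7, 10 and 9 of 20 lie near the 34.1%, 44.1% and 43.4% of all genes called and are no result about the list, although single genes passed. By direction, 17.4%, 22.9% and 22.3% of all genes rose and 16.7%, 21.2% and 21.1% fell. The calls of the list lay mostly downward, which was not tested. Akt1, the central kinase of the pathway, changed by -0.44, -0.45 and -0.40 (adjusted p = 2.06e-04, 3.83e-04 and 0.00111). Grb10, an imprinted inhibitor of the receptor, changed by -0.20, -0.63 and -0.17 (0.0176, 3.04e-05 and 0.0267). Pik3ca and Gsk3b were the other 2 that fell in all 3. Some of these calls rested on single libraries. With 1 library left out at a time, Pik3ca missed the threshold in all 6 fits of Hbs1l-/- cells (adjusted p = 0.0624 to 0.128), Grb10 in 2 of 6 there (without Hbs1l-/- replicate 2 or control replicate 1, up to 0.0675) and in 5 of 6 under the Upf2-/- label (all but control replicate 3, up to 0.085), and Gsk3b in 2 of 6 under that label (without replicate 2 or control replicate 1, up to 0.059). The list medians were -0.13, -0.12 and -0.13. In RNA 1 rose and 1 fell in Hbs1l-/- cells, 5 rose and 2 fell in Pelo-/- cells, where Insr, the insulin receptor, rose by 0.92 (adjusted p = 0.00513) and Irs2, its substrate, by 1.03 (0.00448), and 1 fell under the Upf2-/- label, where 23.1%, 32.1% and 20% of all genes passed. In embryos, where 1.87% of all genes passed, 3 of 10 tested supply genes did, as Stc1, Htra1 and Ctsd rose (2.09, 1.28 and 0.78, adjusted p = 0.0426, 0.0349 and 0.0417). These embryo calls rested on single libraries, as Stc1 missed the threshold in 4 of the 6 fits without a library (adjusted p up to 0.208), Htra1 in 5 (up to 0.22) and Ctsd in 5 (up to 0.224), among them for each gene the 3 fits without 1 Wildtype library, in which 28 to 46 of all genes passed in place of 214. In the same libraries the trophoblast list summed to 133 to 636 CPM in Hbs1l-/- embryos against 32.7 to 55.3 in Wildtype, and its part in these 3 genes was not tested. None of 21 tested relay genes passed there, and none of 8 supply and 22 relay genes in the cerebellum, where 0.0624% of all genes did. At such shares a count of none is no result about a list.

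Among the imprinted neighbours, H19, the noncoding RNA beside Igf2 that is expressed from the maternal allele, rose in the RNA of Hbs1l-/- cells (log2 fold change 1.54, adjusted p = 0.00158), and so did Igf2os, the antisense transcript of Igf2 (0.75, adjusted p = 0.00318). Igf2os also rose in Pelo-/- RNA (0.63, adjusted p = 0.00571), though not without Pelo-/- replicate 1 (0.0503). Plagl1, an imprinted zinc finger gene, fell in the RNA of Hbs1l-/- cells (-0.58, adjusted p = 0.0489) and of the libraries labelled Upf2-/- (-0.85, adjusted p = 0.00874), and the call in Hbs1l-/- cells was lost in 5 of the 6 fits without a library, all but the one without Hbs1l-/- replicate 2 (adjusted p up to 0.162). In footprints Cdkn1c, an imprinted inhibitor of the cell cycle, changed by -0.76 in Hbs1l-/- cells (adjusted p = 0.00212) and by -0.97 in Pelo-/- cells (0.00192). Of the 6 genes of this list 2 were tested in footprints and TE and 5 in RNA. In RNA 2 rose and 1 fell in Hbs1l-/- cells, 1 rose in Pelo-/- cells and 1 fell under the Upf2-/- label. All-gene shares were 23.1%, 32.1% and 20% there. In footprints 1, 1 and none fell, beside 34.1%, 44.1% and 43.4% of all genes. In TE none passed, 1 fell and 1 rose, beside 0.0336%, 44.6% and 20.3%. With so few genes tested these counts are no result about the list.

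The RNA estimates were made per transcript, and some members included forms without the full coding sequence. Processed transcripts made up 50.8% to 58.9% of Igfbp4 RNA in controls, 52.7% to 55.6% in Hbs1l-/- cells, 48.0% to 51.2% in Pelo-/- cells and 45.9% to 56.1% under the Upf2-/- label, with overlap between every mutant and the controls. Retained-intron transcripts of Igf1r took 12.7% to 34.6% in controls and 28.5% to 41.1% in Hbs1l-/- cells, which overlapped. A processed transcript of Igf2 took 21.5% to 27.7% in controls, 15.4% to 15.5% in the 2 Pelo-/- libraries, and 28.9% to 42.8% and 28.5% to 35.5% in Hbs1l-/- and Upf2-labelled cells, none of which overlapped the controls. The kit marks the strand, but no strand setting is given for the quantification, so antisense transcripts may share reads with Igf2 and Igf2r. Igf2os had 192 to 1281 estimated counts per library and Airn, which overlaps Igf2r, 24 to 127.

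The genes whose RNA varied most like each member over the 11 RNA libraries were named by Pearson r of log2 CPM among 9899 genes, as a description, since the 11 libraries fall into 4 groups that differ in many genes. Fat1 (r = 0.993), Ptpn14 and Lrp1 were most like Igf1r, and Dync1h1 (0.987), Trrap and Prrc2b most like Igf2r. Adam23 (0.976), Epdr1 and AU020206 were most like Igf2, and Pik3c3 (0.943), Recql and Gm5641 most like Igf1. For the binding proteins these were Srpx (0.921), Ephx1 and Ksr1 for Igfbp2, Calr (0.956), Col3a1 and Megf6 for Igfbp3, and Rxra (0.979), Gas1 and Mcm3 for Igfbp4. They were Col18a1 (0.961), Ltbp3 and Col14a1 for Igfbp5, Crabp1 (0.977), Xrcc1 and Cd82 for Igfbp6, and Fstl3 (0.967), Sh3rf1 and Hoxb4 for Igfbp7.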

How the data were processed

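Ribosome footprints (30 libraries) and polyA-selected RNA (11 libraries, from a stranded mRNA kit) were analysed. Per the labels and the study's methods, the authors removed rRNA reads with Bowtie2 2.2.3, aligned footprints to mm10 with HISAT2 2.1.0 and counted reads in coding sequences of Gencode M24 with featureCounts. The deposited footprint values are raw counts per gene. For RNA the authors ran kallisto 0.42.4, and deposited estimated counts and TPM per transcript. Here the estimated counts of a gene's transcripts were added and rounded. Footprint totals ranged from 2634480 to 25607974 and RNA totals from 22713643 to 86425762. Values are limited by the number of libraries, and each fold change carries its standard error.

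Tests used edgeR 4.0.16 in R 4.3.3 (filterByExpr, TMM factors, quasi-likelihood F test, Benjamini-Hochberg adjustment over all genes, threshold 0.05), with mutants fitted against the controls of their own batch. TE was an interaction of assay with genotype, and differences between mutants the interaction of batch and genotype. As in the authors' analysis, histone genes were left out of tests on footprints and TE. The alternatives were DESeq2 1.42.0, RLE factors, no filter, a replicate block, length-scaled counts, limma 3.58.1 on log2(TPM + 1), a direct comparison of mutants, each library left out and, added after seeing the data, TMM-scaled CPM per kilobase for summed levels. Per-length footprint levels (footprint TPM) were counts over coding length, scaled to a common total per library. The edgeR fits were tested on simulated data with known changes. The 10 members are all named, with the 3 genes most alike over the RNA libraries (mean CPM of at least 5, prior count 2), and pathway and marker genes from fixed lists. The members and lists were chosen with earlier results of these data known. Promoters come from RefSeq (GRCm38.p6) and gene positions from Gencode M21 (GRCm38).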

Additional observations from a re-analysis of the deposited data

Results flagged for a closer look

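Footprint changes of 4 members differed between MEF mutants by a test of the difference itself, which called 5.55% (Pelo-/- minus Hbs1l-/-), 4.93% (the Upf2-/- label minus Hbs1l-/-) and 13% (Pelo-/- minus the Upf2-/- label) of all genes and counts nearly identical controls of different batches as separate. On the log2 scale, Igf2r differed by -0.55 (Pelo-/- minus Hbs1l-/-, edgeR adjusted p = 0.0011) and by -0.70 (Pelo-/- minus the Upf2-/- label, 7.49e-05), with all 3 Pelo-/- libraries below their controls. Igfbp4 differed by 0.72 (Pelo-/- minus Hbs1l-/-, 0.0144), Igfbp3 by 1.21 (the Upf2-/- label minus Hbs1l-/-, 0.0119) and Igfbp5 by 0.80 (Pelo-/- minus the Upf2-/- label, 0.0331), with all 3 mutant libraries above their controls in both mutants of each pair. The Igfbp5 call was lost in 8 of 12 fits without 1 library.

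For 3 members the Hbs1l mutants lay on opposite sides of their controls in different tissues, a difference that was not tested. Of all genes 46.4% did not overlap their controls in MEF footprints, 18.3% in the cerebellum and 23.8% in embryos. The share of all genes on opposite sides was not counted, so the count of 3 is no result about the members. Igfbp3 was above all controls in MEFs (0.70) and below them in the cerebellum (-0.44). Igfbp4 was above in MEFs (0.92) and in the cerebellum (0.42) and below in embryos (-0.36). Igfbp5 was above in MEFs (0.98) and below in embryos (-0.69). The changes in cerebellum and embryos did not pass the adjusted threshold.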

How the results depend on the processing

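Members called in the footprints of Hbs1l-/-, Pelo-/- and Upf2-labelled MEFs kept their direction in every alternative run. DESeq2 called 1 member and 432 genes in embryos, 484 genes in cerebella, 7 members and 4939 genes in Pelo-/- RNA, 2 and 3715 in Upf2-labelled RNA and 334 genes in Hbs1l-/- TE. With no filter on low counts these were 1 member and 703 genes in embryos, 16 genes in cerebella and 2 members and 3866 genes in Upf2-labelled RNA. The limma fit on log2(TPM + 1) called 3, 4 and 0 members and 2011, 2391 and 1646 genes in Hbs1l-/-, Pelo-/- and Upf2-labelled RNA. Length-scaled counts gave 0 members and 2735 genes in Upf2-labelled RNA. Mutants compared directly across batches, without their controls, gave 5, 6 and 4 members and 1950, 1928 and 3303 genes for Pelo against Hbs1l, Upf2 against Hbs1l and Pelo against Upf2. Calls that this comparison added were Igf1, Igfbp3 and Igfbp7 (adjusted p = 0.0274, 0.0094 and 0.0204) in the first, Igf1, Igf2, Igf1r, Igfbp2 and Igfbp4 (0.00108, 0.00285, 0.0245, 0.0309 and 0.0366) in the second, and Igf2 and Igfbp7 (0.00339 and 0.017) in the third. The cause was not tested. The member behind the count of 1 in embryos was Igfbp5 in each case.

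Within a comparison the replicate numbers did not pair mutants with controls, with correlations of same-numbered deviations between -0.234 and 0.285. Across batches they did mark the near-identical control MEF footprint libraries. Pairing by number between footprints and RNA was not checked. With the number as a replicate block, 1 member and 564 genes passed in embryos and 0 genes in cerebella. In Hbs1l-/- RNA 3 members and 2813 genes passed with it. Gene counts were 2955 in Pelo-/- RNA, 71 in Hbs1l-/- TE and 394 in the Upf2-Hbs1l difference. The block added calls for Igfbp5 in embryos (adjusted p = 0.0246), Igfbp2 in Hbs1l-/- footprints (0.0471), Igf1 and Igfbp7 in Pelo-/- footprints (0.00114 and 0.0193) and Igfbp3 in the Pelo-Hbs1l difference (0.0148). It took away those of Igfbp3 and Igfbp5 in Hbs1l-/- RNA (0.0866 and 0.073), Igfbp5 in Pelo-/- RNA (0.0522) and Igfbp5 and Igfbp6 in Pelo-/- TE (0.0754 and 0.0606), and it changed no other member's call.

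Values near 0 changed sign under single settings. These were Igfbp6 in embryos (-0.0097 in DESeq2, -7e-04 with no filter, -0.0697 with the block), Igf1r in cerebella (-0.0056 in DESeq2 and with RLE factors), Igf1 in Hbs1l-/- RNA (-4e-04, block) and TE (0.0238, block), Igf1r in Hbs1l-/- TE (-0.23, length-scaled counts) and Igf2 in Pelo-/- TE (0.0821, length-scaled counts). Igfbp6 did so in Pelo-/- RNA (0.11 with the block, 0.0902 in limma) and in Upf2-labelled RNA (0.0185, no filter), and Igf2 in the Pelo-Hbs1l difference (-0.0059 in DESeq2 and with RLE factors, -0.0108 in the direct comparison).

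Leaving out 1 library at a time, 0 to 4 members and 28 to 2309 genes passed in embryos, 0 to 560 genes in cerebella, 3 to 5 members and 1817 to 2663 genes in Hbs1l-/- RNA, 1 to 6 and 1506 to 4802 in Pelo-/- RNA, 1 to 2 and 1800 to 3201 in Upf2-labelled RNA, 0 to 67 genes in Hbs1l-/- TE, 5 to 8 members in Pelo-/- TE and 1507 to 2840 genes in Upf2-labelled TE. In the differences these were 2 to 4 members and 384 to 735 genes (Pelo-Hbs1l), 1 to 2 and 353 to 583 (Upf2-Hbs1l) and 1 to 3 and 1097 to 1743 (Pelo-Upf2). Without 1 of the 2 Pelo-/- RNA libraries, the lone library is assumed to vary like the controls. The log2 fold change of members that missed the threshold changed sign when 1 library was left out, with these ranges: in embryo footprints Igf1r (-0.25 to 0.0121), Igf2r (-0.14 to 0.0378), Igfbp3 (-0.0575 to 0.41) and Igfbp6 (-0.18 to 0.25), in cerebellum footprints Igf1 (-0.0209 to 0.15) and Igf1r (-0.12 to 0.13), in Hbs1l-/- MEF footprints Igf1 (-0.13 to 0.23) and Igf2r (-0.0612 to 0.0151), in Hbs1l-/- RNA Igf1 (-0.24 to 0.17), in Pelo-/- RNA Igfbp4 (-0.02 to 0.34) and Igfbp6 (-0.13 to 0.11) and in Upf2-labelled RNA Igf2r (-0.31 to 0.0444), Igfbp4 (-0.0638 to 0.33), Igfbp6 (-0.11 to 0.12) and Igfbp7 (-0.0358 to 0.20). Further ranges were, in Hbs1l-/- TE, Igf1 (-0.17 to 0.25), Igf2 (-0.12 to 0.0633), Igf1r (-0.0351 to 0.23), Igfbp5 (-0.0951 to 0.36) and Igfbp7 (-0.21 to 0.11), in Pelo-/- TE Igf2 (-0.14 to 0.0687) and Igfbp2 (-5e-04 to 0.23), in the Pelo-Hbs1l difference Igf2 (-0.094 to 0.0775), Igfbp2 (-0.0026 to 0.26) and Igfbp6 (-0.0233 to 0.0944), in the Upf2-Hbs1l difference Igfbp6 (-0.21 to 0.0182) and Igfbp7 (-0.31 to 0.0154) and in the Pelo-Upf2 difference Igf1 (-0.51 to 0.0278), Igf1r (-0.0474 to 0.11) and Igfbp3 (-0.43 to 0.0994).

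On a scale added after seeing the data, TMM-scaled CPM per kilobase in place of footprint TPM, the ligand sum in mutants over controls was 1.25 in place of 1.328 in Hbs1l-/- MEFs and 1.665 in place of 1.798 under the Upf2-/- label.

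Without the filter on low counts the median of all genes shifted to -0.16 in Pelo-/- RNA and to 0.10 in its TE, against -0.01 and 0.04. Igfbp6 fell under the filter in 1 of the 6 embryo fits without a library and has no value there. Depth limits the embryos most, where Igfbp7 had 3 to 13 footprints per library.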
